A study of Mus musculus with 3 samples.

Results

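Protocadherins are cadherin-like adhesion proteins of the cell surface, and their genes were followed here in mouse embryoid bodies that carry a Dido mutation. The members were all array probes whose gene name starts with Pcdh, control spots left out. They were 64 probes for 47 genes, among 39429 probes and 30119 genes on the array. Of these genes, 35 belong to the alpha, beta and gamma clusters of chromosome 18 (7 alpha, 22 beta and 6 gamma genes, 38 probes) and 12 lie outside the clusters (26 probes). The word protocadherin stands in the scanner file's description of 63 of the 64 probes.

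Embryoid bodies are floating aggregates in which embryonic stem cells differentiate into mixed tissues. The mutant group, Dido3deltaCT+HADidoNT, makes a Dido3 protein truncated at its C-terminal end and, on top of it, an excess of the N-terminal region of Dido with an HA tag and the PHD domain. The wild-type group carries neither change, and both groups were grown for 10 days in suspension without LIF, a cytokine that keeps mouse stem cells undifferentiated. There were 3 biological replicates per group, and each of 3 arrays set 1 mutant RNA against 1 wild-type RNA in 2 colours. The promoter that drives the HA-tagged protein, the sex of the lines and the number of clones are not named in the labels, so the p-values measure the spread between these cultures only.

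In vertebrates, many protocadherins join cells by binding the same protein on a neighbouring cell. In the alpha and gamma clusters, each variable exon has its own promoter and is spliced to constant exons shared by the cluster, while each beta gene is a single exon of its own. Neurons choose different sets of clustered promoters, with CTCF and cohesin bridging promoter and enhancer, and so acquire different surface identities. The non-clustered protocadherins are separate genes, each expressed in its own pattern in brain regions, somites, vessels or other tissues.

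All ratios are log2 mutant over wild type, so that a value above 0 is a higher level in mutant embryoid bodies, with the SD over n = 3 arrays. Cy3 marked the mutant RNA on arrays 1 and 3 and Cy5 marked it on array 2, which was alone in its dye orientation. The arrays differed: over 19665 genes the log2 ratios correlated at 0.79 between arrays 1 and 3, at 0.38 between arrays 1 and 2, and at 0.19 between arrays 2 and 3. The dye orientation of array 2 and its own pair of cultures cannot be told apart, and results that rest on it are given by array. Of the 4 Dido1 probes, 2 were higher in the mutant, at 3.03 ± 0.34 and 2.35 ± 0.40, 1 was lower, at -3.60 ± 0.17, and 1 averaged -0.54 ± 0.93. The first 3 of these passed the adjusted threshold, in the fit of single probes. The Y-linked genes Eif2s3y and Ddx3y stood clear of background in the wild type on 3 arrays and in the mutant on none. In a mixed tissue such as this, fewer cells of a type and less RNA per cell cannot be told apart.

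Probes were kept where the mutant channel, the wild-type channel or both stood well above background on all 3 arrays. That left 25 of the 64 protocadherin probes and 22 of the 47 genes: 9 of 12 non-clustered, 1 of 7 alpha, 9 of 22 beta and 3 of 6 gamma genes. The other 25 genes had no kept probe. No probe of 4 alpha and 4 beta genes was well above background in either genotype on any array, while each gamma and each non-clustered gene passed on at least 1 array. The kept genes include several that were dim in 1 genotype, so no count over them stands for the whole family.

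None of the kept protocadherin genes passed the test. With limma and Benjamini-Hochberg adjustment over all genes at 0.05, 0 of 22 protocadherin genes were called, against 325 of 19665 genes, or 1.65%. Of those calls 249 genes were higher (1.27%) and 76 lower (0.386%). At an unadjusted p under 0.05, 5 of 22 protocadherin genes were found, against 19.9% of all genes, and these were Pcdh17, Pcdh7, Pcdh12 and Pcdhb21 with higher values (4 genes, against 12.1%) and Pcdh8 with lower ones (1 gene, against 7.78%). These shares lay near those of all genes. A dye term in the fit called 5 of the 22 members, Pcdh17, Pcdh7, Pcdh12, Pcdh18 and Pcdh8, against 2534 of all 19665 genes. The fit without replicate 2 called 6 of 22, namely Pcdh17, Pcdh7, Pcdh1, Pcdh8, Pcdh10 and Pcdhb18, against 5082 of 19665. Both fits estimate the spread from arrays 1 and 3 alone, which share a dye orientation.

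**Figure D1:**
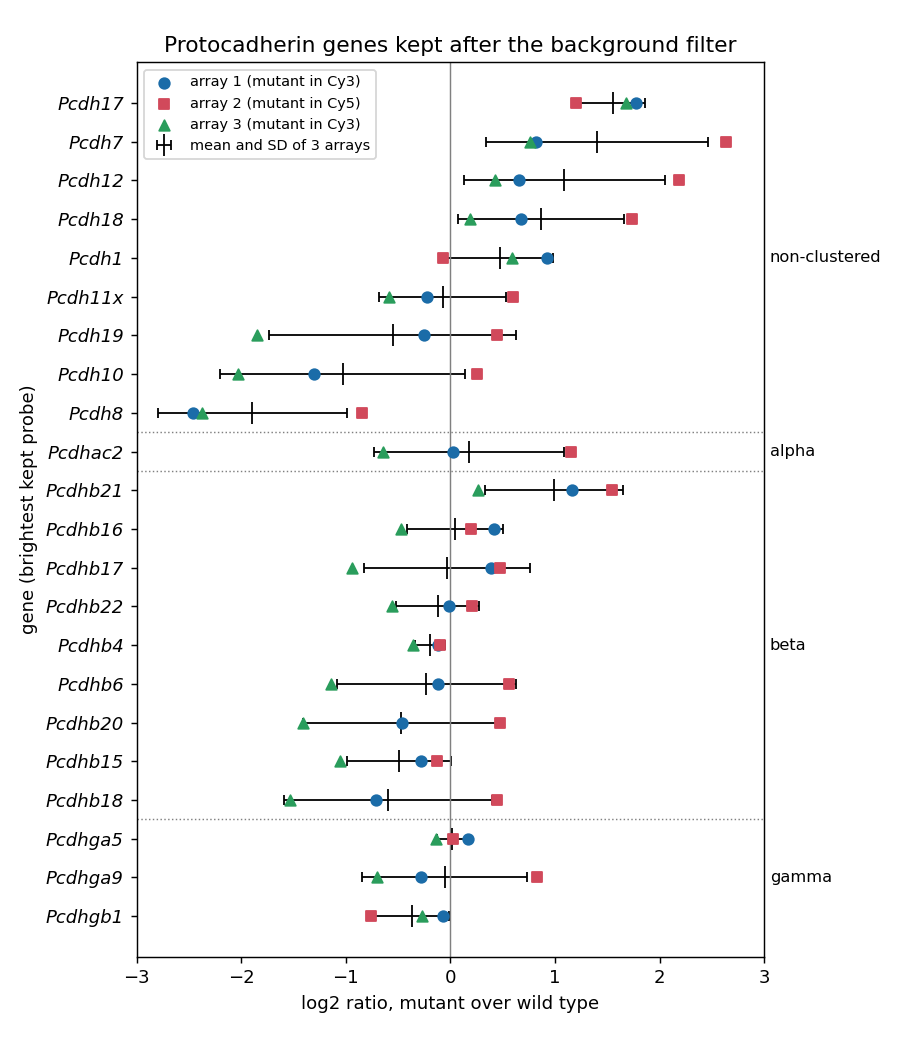
Log2 ratio of mutant over wild type (x axis) for each of the 22 kept protocadherin genes (y axis), with 1 symbol per array and the mean and SD of 3 arrays as a bar. Pcdh17 lies right of 0 and Pcdh8 left of 0 on all 3 arrays, and 12 of the 13 clustered genes are below 0 on array 3.

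Among the genes outside the clusters, 5 of 9 averaged above 0 and 4 below it, and single genes lay far to either side. The median of the 9 genes was 0.48, against -0.01 over all genes, and by array it was 0.66, 0.59 and 0.19 on arrays 1, 2 and 3, against 0.03, 0.01 and 0.02. With no filter on dim probes the median of all 12 genes was -0.001, so the shift of the median depends on which genes were kept.

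Pcdh17, a non-clustered protocadherin known from neural circuits of the basal ganglia, had the smallest p of the 22 kept genes. Its log2 channel intensity was 8.24, 7.48 and 8.11 in mutant embryoid bodies of replicates 1, 2 and 3, against 6.47, 6.29 and 6.44 in the wild type. All mutant values lay above all wild-type values. The log2 ratio was 1.78, 1.20 and 1.68 on arrays 1, 2 and 3, a mean of 1.55 ± 0.31, with an adjusted p of 0.0517 in limma. The wild type was well above background on 1 of 3 arrays and the mutant on 3, so the size of the ratio depends on how the background was treated: it was 2.10 with a normexp offset of 16 and 3.81 in the scanner's own log ratio. The gene passed the threshold under both of these settings and under others, among them the dye term (1.46) and the fit without replicate 2 (1.73). It did not pass with no limit on the local background (1.18, adjusted p of 0.319 in limma) or with the authors' ratios (1.09, 0.0818). Nor did it pass with no background correction, no filter, the mean of probes, or without replicate 1 or replicate 3. Where both genotypes had to be above background, it was not kept.

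Pcdh12, also called vascular endothelial cadherin-2, is known from endothelium and from glycogen cells of the placenta. Its log2 intensity was 8.29, 9.27 and 7.94 in the mutant and 7.63, 7.08 and 7.52 in the wild type. The groups did not overlap, and the gap was widest on array 2. The log2 ratios were 0.66, 2.19 and 0.42, with a mean of 1.09 ± 0.96 and an adjusted p of 0.236 in limma. Of 19 kept endothelial markers, 3 were called, all higher, namely the VEGF receptor genes Flt1 (3.06 ± 0.39) and Kdr (2.27 ± 0.59) and the adhesion gene Icam2 (2.32 ± 0.65). The other 16 did not pass; at an unadjusted p under 0.05, 11 of the 19 were higher and 1 was lower, the junction gene Esam (-0.80 ± 0.49). The summed intensity of the 19 markers was 57888 to 83978 in the mutant and 32647 to 48462 in the wild type, and no marker of the list was left out as dim. Cdh5, the VE-cadherin gene and a marker in that list, averaged -0.03 ± 0.40. Of 13 kept trophoblast markers, 3 were called, all higher (Hand1 1.82 ± 0.30, Cdx2 2.14 ± 0.56 and Gcm1 3.76 ± 1.24, the last uncertain because the file places its probe on chromosome 7 and RefSeq places the gene on chromosome 9). The other 10 did not pass; at an unadjusted p under 0.05, 7 of the 13 were higher and 1 was lower, Tfap2c (-1.66 ± 0.91). Summed intensity of the 13 was 144712 to 380864 in the mutant and 54367 to 96198 in the wild type, with Tpbpa and Ctsq not kept. The part of these markers in the Pcdh12 values was not tested.

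Pcdh18, a protocadherin of embryonic mesenchyme and brain, had log2 intensities of 11.38, 11.04 and 11.00 in the mutant and 10.70, 9.31 and 10.81 in the wild type. Mutant values lay above all wild-type values, with the wild type of replicate 2 lowest. The log2 ratios were 0.68, 1.73 and 0.19, with a mean of 0.87 ± 0.79 and an adjusted p of 0.267 in limma. Of 14 kept mesenchyme markers, 3 were called, all higher (Acta2 2.36 ± 0.14, Fn1 1.79 ± 0.28 and Fbn1 2.30 ± 0.54). The other 11 did not pass, with 9 of the 14 higher and 0 lower at an unadjusted p under 0.05 in limma, and Prrx1, Thy1 and Pdgfra averaged -0.48, -0.43 and -0.15. Over the list the summed intensity was 211970 to 281123 in the mutant and 61636 to 111375 in the wild type, with Col1a1 and Postn not kept, and their part in the Pcdh18 values was not tested.

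Pcdh7, whose frog counterpart is known as NF-protocadherin, gave different values with different probes. The probe that stood for the gene, at mm9 chr5:58120201-58120260, had log2 intensities of 10.17, 10.89 and 10.48 in the mutant and 9.35, 8.26 and 9.72 in the wild type. The groups did not overlap, and array 2 had by far the highest ratio. The log2 ratios were 0.82, 2.63 and 0.76, with a mean of 1.40 ± 1.06 and an adjusted p of 0.181 in limma. Both further kept probes, at chr5:58520529-58520588 and chr5:58523420-58523479, are listed against another Pcdh7 transcript and averaged 0.35 ± 0.10 and 0.32 ± 0.27. On array 2 those were 0.45 and 0.49, so the high ratio of that array stood at the upstream probe.

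Pcdh1, a protocadherin of epithelia such as the airway lining, averaged 0.48 ± 0.51, with log2 ratios of 0.92, -0.08 and 0.58 and an adjusted p of 0.397 in limma. Its intensities overlapped, at 12.09, 11.82 and 11.18 in the mutant and 11.18, 11.90 and 10.60 in the wild type. Among the 9 kept non-clustered genes it was the only gene whose wild-type value in replicate 2 was not the lowest of the wild type.

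Pcdh8, known as paraxial protocadherin from its role in somite formation, had the lowest mean ratio of the 22 kept genes. Its log2 intensity was 6.71, 7.36 and 7.38 in the mutant, against 9.17, 8.21 and 9.75 in the wild type. The groups did not overlap, and the mutant was well above background on 2 of 3 arrays. The log2 ratios were -2.46, -0.85 and -2.37, a mean of -1.89 ± 0.90, with an adjusted p of 0.0865 in limma. Its size too depended on the background treatment, and the scanner's own log ratio gave -3.06. The median of 9 kept paraxial mesoderm markers was -0.51, with the somite clock gene Lfng at -2.10 ± 0.80, the Notch ligand gene Dll3 at -1.66 ± 0.61 and Foxc2 at 0.50 ± 0.26, and none was called. Their summed intensity was 2312 to 2814 in the mutant and 2807 to 4698 in the wild type, and Msgn1, Ripply2, Meox1 and Uncx were not kept. Their part in the Pcdh8 values was not tested.

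Pcdh10, or OL-protocadherin, is known from axon pathways of the forebrain. Its log2 intensity was 7.15, 6.87 and 6.58 in the mutant, against 8.46, 6.62 and 8.61 in the wild type. The wild-type values of replicates 1 and 3 lay above all mutant values and that of replicate 2 did not. The log2 ratios were -1.31, 0.26 and -2.03, with a mean of -1.03 ± 1.17 and an adjusted p of 0.324 in limma. A further Pcdh10 probe that was not kept had ratios of -1.07, 0.10 and -1.42, in the same order of arrays. The kept probe, shown because the file places its 60 bases across 6508 bases of genome and so across a splice junction, has 1 reading frame without a stop codon, and all of its bases are in lower case.
Pcdh10, mm9 chr3:45196739-45203246, plus strand: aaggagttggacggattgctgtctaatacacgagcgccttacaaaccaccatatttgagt

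Pcdh19 is an X-linked gene whose human counterpart is mutated in an epilepsy that mainly affects females. Its log2 intensity was 9.85, 8.80 and 8.51 in the mutant, against 10.10, 8.35 and 10.36 in the wild type. The groups overlapped, and the ratio of array 3 stood apart from the others. The log2 ratios were -0.25, 0.44 and -1.85, a mean of -0.55 ± 1.18 with an adjusted p of 0.585 in limma, and without replicate 3 the mean was 0.10. Pcdh11x, also X-linked, had ratios of -0.22, 0.59 and -0.59 and a mean of -0.07 ± 0.61. This kept probe is named for a sequence other than a RefSeq transcript. The Pcdh11x probe named for a RefSeq transcript was well above background in neither genotype on any array, and a further probe was not kept either. The Y-linked Eif2s3y and Ddx3y were above background in the wild type only, no Xist probe was kept, and the part of sex in these X-linked values was not tested.

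**Figure D2:**
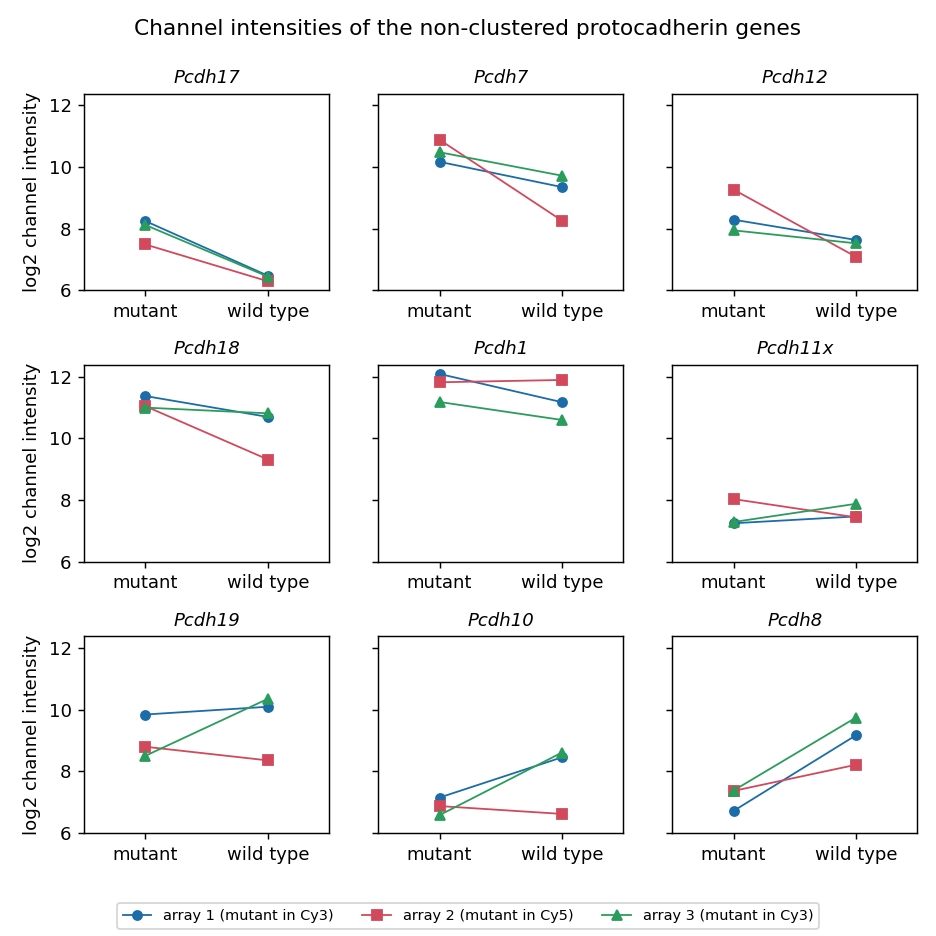
Normalised log2 channel intensity (y axis) in mutant and wild type (x axis) for the 9 kept non-clustered genes, with 1 line per array. The mutant lies above the wild type on every array for Pcdh17, Pcdh7, Pcdh12 and Pcdh18 and under it on every array for Pcdh8, and the wild-type value of array 2 is the lowest wild-type value in 8 of the 9 genes.

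Across the family, the 6 channel intensities did not overlap for 4 of 22 genes with the mutant higher, against 13% of all genes, and for 2 with the mutant lower, against 8.58%. The 4 were Pcdh17, Pcdh7, Pcdh12 and Pcdh18, and the 2 were Pcdh8 and Pcdhb15. A further way to count gave 5 genes higher on all 3 arrays, against 22.5% of all genes, and 4 lower on all 3, against 19.1%. These shares too lay near those of all genes.

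Promoter sequences from RefSeq (GRCm38.p6) are shown for Pcdh17, Pcdh7, Pcdh18 and Pcdh8, 4 of the genes whose groups did not overlap, so that the 3 with higher values can be set beside Pcdh8. Each runs from 250 bases before to 50 bases after the annotated start, 5′ to 3′ in the direction of the gene. Capitals mark every match, on either strand, to the GC box GGGCGG, to the box named CCAAT and to the TATA box motif TATAAA.
Pcdh17, GRCm38.p6 chr14:84443313-84443612, plus strand: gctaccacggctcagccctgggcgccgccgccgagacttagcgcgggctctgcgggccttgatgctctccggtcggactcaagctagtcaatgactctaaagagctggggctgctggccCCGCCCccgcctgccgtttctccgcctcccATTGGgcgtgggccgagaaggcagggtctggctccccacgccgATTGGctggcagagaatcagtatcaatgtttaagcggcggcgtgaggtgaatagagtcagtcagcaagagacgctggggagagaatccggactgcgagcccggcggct
Pcdh7, GRCm38.p6 chr5:57717831-57718130, plus strand: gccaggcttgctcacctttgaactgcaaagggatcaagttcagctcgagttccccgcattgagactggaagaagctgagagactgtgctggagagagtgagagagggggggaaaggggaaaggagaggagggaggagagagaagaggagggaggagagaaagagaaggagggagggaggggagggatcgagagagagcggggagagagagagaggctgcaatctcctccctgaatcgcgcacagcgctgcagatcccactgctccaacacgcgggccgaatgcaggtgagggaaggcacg
Pcdh18, GRCm38.p6 chr3:49757267-49757566, minus strand: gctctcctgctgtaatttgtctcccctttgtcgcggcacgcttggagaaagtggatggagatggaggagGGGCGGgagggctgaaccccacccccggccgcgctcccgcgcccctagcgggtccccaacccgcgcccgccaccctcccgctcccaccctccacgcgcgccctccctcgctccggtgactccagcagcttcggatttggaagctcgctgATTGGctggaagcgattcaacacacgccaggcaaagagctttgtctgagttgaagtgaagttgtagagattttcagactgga
Pcdh8, GRCm38.p6 chr14:79771263-79771562, minus strand: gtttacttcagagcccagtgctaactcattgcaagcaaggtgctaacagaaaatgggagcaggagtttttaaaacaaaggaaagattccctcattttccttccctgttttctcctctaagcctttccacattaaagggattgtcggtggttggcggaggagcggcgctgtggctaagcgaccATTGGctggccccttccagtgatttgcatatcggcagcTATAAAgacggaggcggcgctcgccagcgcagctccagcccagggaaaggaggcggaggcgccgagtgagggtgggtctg
The Pcdh17 promoter holds 65% G and C, 26 CpG dinucleotides, 1 GC box and 2 CCAAT matches, and the Pcdh18 promoter holds 63%, 23 CpG, 1 GC box and 1 CCAAT match. The Pcdh8 promoter, of the gene with lower values in the mutant, holds 54.3%, 14 CpG, 1 CCAAT match and 1 TATAAA match. The Pcdh7 window holds 59.3% and 11 CpG and no match to any of the 3 motifs. Over the 32851 promoters of the table the median was 52.7% and 7 CpG. Of the 9 protocadherin genes in the table, 4 held GGGCGG, 8 held CCAAT and 2 held TATAAA, Pcdh8 and Pcdh15, against 35.7%, 37.4% and 13.6% of all promoters. The motif letters do not overlap in the sequences shown.

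The clustered genes lay close to 0 on average and moved with the array. The median of the 13 kept genes was -0.12, and by array it was -0.07, 0.45 and -0.65 on arrays 1, 2 and 3. On array 3, 12 of the 13 were lower in the mutant, against 48.5% of all genes, and on array 2, 10 of the 13 were higher, against 50.4%. Over all 22 protocadherin genes these counts were 16 and 17. With no filter on dim probes, 31 of the 35 clustered genes were below 0 on array 3, and their medians by array were -0.10, 0.13 and -0.47. Without replicate 3 the median of the kept clustered genes was 0.10, so its sign rests on that array.

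In 8 of the 22 genes, 5 of them clustered, the ratio was above 0 on array 2 and below 0 on arrays 1 and 3, against 19.3% of all genes. These were Pcdh10, Pcdh11x, Pcdh19, Pcdhb6, Pcdhb18, Pcdhb20, Pcdhb22 and Pcdhga9.

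The channel intensities show where the arrays parted. The wild type of replicate 2 had the lowest wild-type value for 11 of the 13 clustered genes, against 35.3% of all genes, and the wild type of replicate 3 had the highest of all 6 values for 9 of the 13, against 14.8%. The summed intensity of the 9 beta genes was 1673, 1298 and 1741 in mutants 1, 2 and 3, against 1523, 944 and 3075 in the wild types. The mutant sums of the beta genes lay closer together than the wild-type sums, and wild type 3 was far above wild type 2. In both genotypes the sum was lowest in replicate 2. Summed over all 13 clustered genes, the intensity was 9028, 11254 and 7977 in mutants 1, 2 and 3. In the wild types it was 10337, 6664 and 13090. Most of each of these sums came from the Pcdhga9 probe, listed against transcripts of 4 genes. Its log2 intensity was 12.73, 13.15 and 12.44 in the mutants and 13.01, 12.32 and 13.14 in the wild types. Mutant 2 was the highest mutant for 3 of the 13 genes.

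Neural markers parted in the same wild-type channels, and so did some lists that are not neural. The wild type of replicate 2 was the only wild type labelled with Cy3. Its dye and its culture thus cannot be told apart, for these markers or for the clustered genes. Summed over 19 neuron markers, the intensity was 22731, 19610 and 20039 in the mutants, against 28239, 13300 and 57950 in the wild types. Over 19 kept neural progenitor markers it was 15915, 17936 and 32365 in the mutants, against 92446, 35401 and 105296 in the wild types. The wild type of replicate 2 was thus the lowest wild type in both lists and that of replicate 3 the highest. Sums over other cadherins had the same order (58676, 36430 and 70879 in wild types 1, 2 and 3). So had those over cluster regulators, paraxial mesoderm markers and non-clustered protocadherins. The order differed for protocadherin partners, chromosome 18 neighbours and the endothelium, trophoblast, mesenchyme and visceral endoderm markers. The median log2 ratio of the neuron list was -1.65, 0.07 and -2.16 on arrays 1, 2 and 3. Of the 19 markers, 9 were lower and 1 higher at an unadjusted p under 0.05 and 0 were called in limma; those with the smallest p were Stmn2 (-1.76 ± 0.52), Rbfox3 (-1.61 ± 0.69) and Stmn3 (-2.63 ± 1.49), which encode a microtubule regulator, a neuronal splicing factor and a relative of the first. The progenitor list had medians of -2.99, -0.43 and -2.83, and of its members the Notch receptor gene Notch1 was at 3.61 ± 1.43, the Notch ligand gene Dll1 at -1.91 ± 0.86 and Prom1 at -1.65 ± 0.76, with 0 called and Lhx2 not kept. The part of these markers in the values of the clustered genes, of Pcdh10 and of Pcdh19 was not tested.

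**Figure D3:**
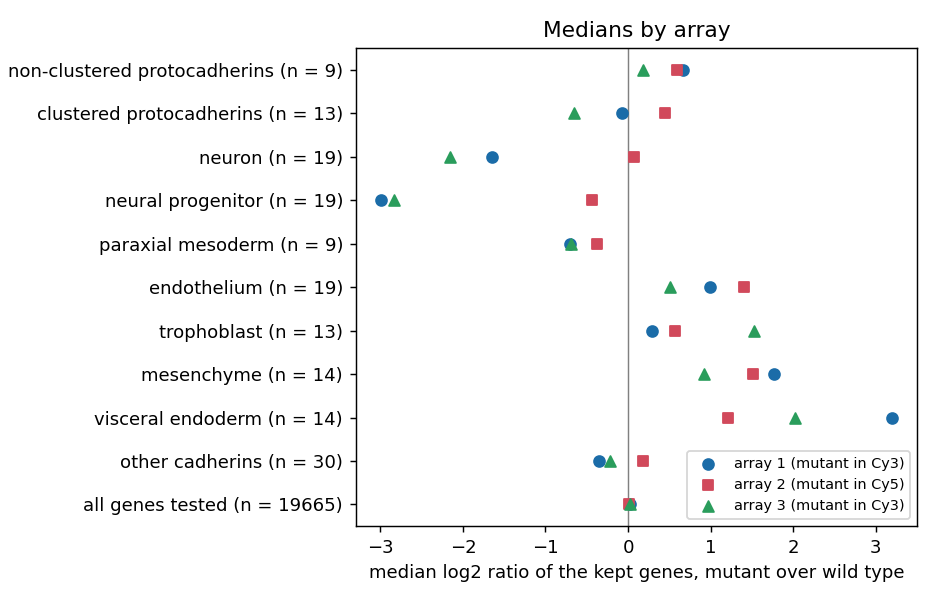
Median log2 ratio of mutant over wild type (x axis) of the kept genes of each group (y axis), with 1 symbol per array. The clustered protocadherins and the neuron markers are lowest on array 3 and above 0 on array 2, while all genes tested stay at 0.01 to 0.03 on the 3 arrays.

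The alpha cluster was represented by a single kept probe. It carries the name Pcdhac2 but is listed against transcripts of Pcdha4, Pcdha9, Pcdhac1 and Pcdhac2, so it reports on the cluster rather than on a chosen variable exon. Its log2 intensity was 8.31, 9.40 and 8.79 in the mutant and 8.28, 8.25 and 9.44 in the wild type. The ratios were 0.03, 1.15 and -0.65, a mean of 0.18 ± 0.91 with an adjusted p of 0.847 in limma. The other 8 alpha probes were not kept, and their means lay between -0.29 for a Pcdha8 probe, also listed against 4 genes, and 0.28 for a further Pcdhac2 probe.

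In the beta cluster, 7 of 9 kept genes averaged below 0 and 2 above it, with a median of -0.19 and medians by array of -0.11, 0.45 and -0.94. Beta genes are related copies of each other. Each kept beta probe is listed against transcripts of 1 gene, but whether it also reports a neighbour was not tested. Each value is therefore uncertain as to the gene. Pcdhb21 had the highest ratios of the clustered genes, 1.16, 1.55 and 0.27, with a mean of 0.99 ± 0.66 and an adjusted p of 0.177 in limma. Among the 13 kept clustered genes it was the only gene above 0 on all 3 arrays. Its log2 intensity was 8.76, 8.01 and 8.67 in the mutant and 7.60, 6.46 and 8.40 in the wild type, and these overlapped, since mutant 2 lay under wild type 3. The wild type of Pcdhb21 was well above background on 2 of 3 arrays and the mutant on 3. The size of its ratio depended on the background treatment, and the scanner's own log ratio gave 2.265. Where both genotypes had to be above background, Pcdhb21 was not kept.

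At the other end of the beta genes, Pcdhb18 averaged -0.60 ± 0.99, with ratios of -0.71, 0.45 and -1.53. Pcdhb15 averaged -0.49 ± 0.50, with ratios of -0.28, -0.13 and -1.06. Among the kept clustered genes, Pcdhb15 was the only gene whose groups did not overlap: its log2 intensity was 6.53, 6.45 and 6.42 in the mutant, well above background on 2 of 3 arrays, and 6.81, 6.58 and 7.47 in the wild type. Pcdhb20 averaged -0.47 ± 0.94, with ratios of -0.46, 0.47 and -1.41. The adjusted p of these 3 genes was 0.493, 0.381 and 0.578 in limma. The remaining 5 lay nearer to 0, with means of 0.05 for Pcdhb16, -0.03 for Pcdhb17, -0.12 for Pcdhb22, -0.19 for Pcdhb4 and -0.23 for Pcdhb6. All 5 were below 0 on array 3. Of the 13 beta genes that were not kept, 12 were below 0 on array 3 as well, and their median there was -0.76, against -0.19 on array 1 and 0.04 on array 2.

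The gamma genes gave small means. The probe that stood for Pcdhga9 is listed against transcripts of Pcdhga1, Pcdhga5, Pcdhga6 and Pcdhga9, and its log2 intensity was 12.73, 13.15 and 12.44 in the mutant and 13.01, 12.32 and 13.14 in the wild type. Its ratios were -0.28, 0.82 and -0.70, with a mean of -0.05 ± 0.79. A further Pcdhga9 probe, also listed against transcripts of 4 genes, had ratios of -0.18, 0.08 and -0.97, so neither probe reports on Pcdhga9 alone. The order of the arrays was the same with both probes, array 2 highest and array 3 lowest. Pcdhga5 averaged 0.02 ± 0.15. Pcdhgb1 differed from the rest in that array 2 was its lowest, with ratios of -0.07, -0.76 and -0.27, a mean of -0.37 ± 0.35 and an adjusted p of 0.438 in limma.

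**Figure D4:**
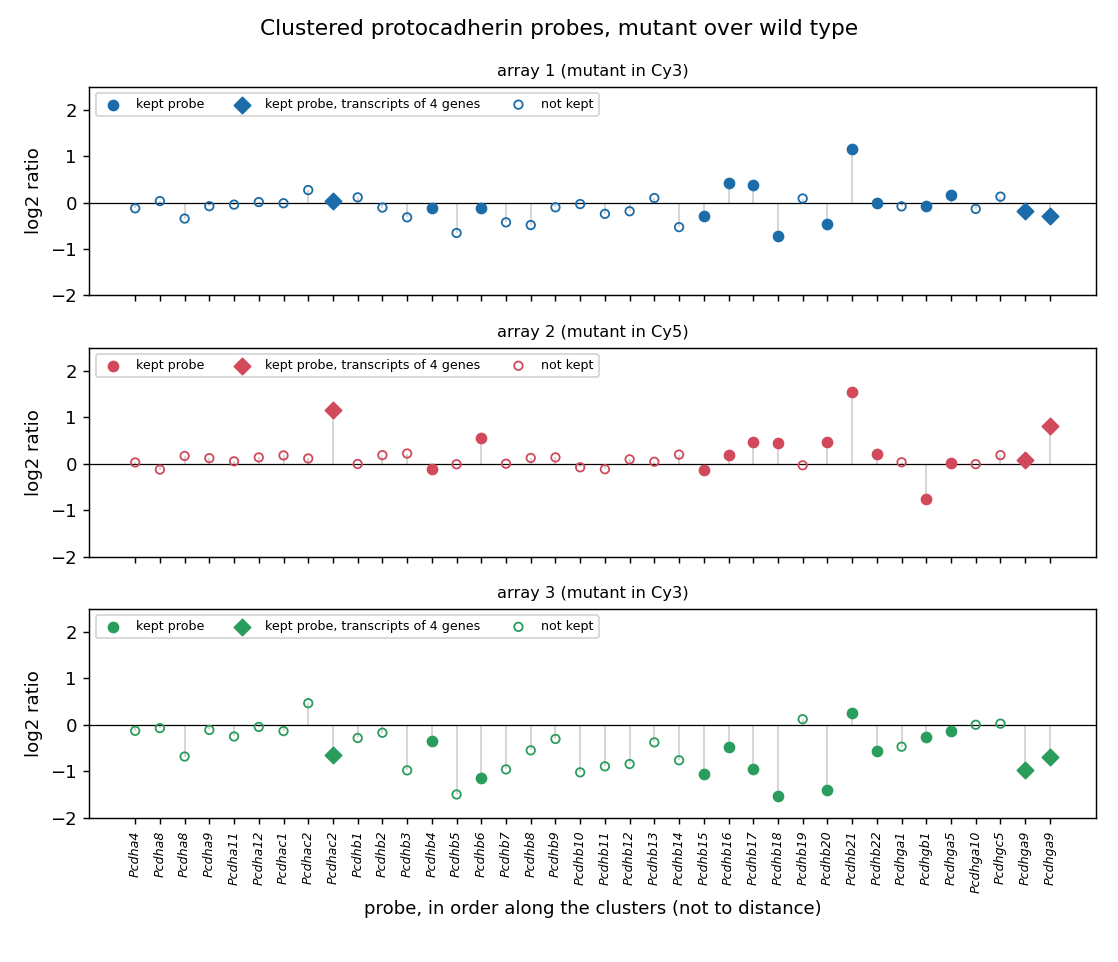
Log2 ratio of mutant over wild type (y axis) of the 38 clustered probes in their order along the chromosome (x axis, not to distance), with 1 panel per array. Filled symbols are kept probes, diamonds kept probes listed against transcripts of 4 genes, and open circles probes that were not kept. On array 3 the beta probes lie mostly below 0, while on array 2 Pcdhb21 and the diamond of the alpha cluster are highest.

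Genes known to regulate the clusters were close to 0 as a list. Of 19 listed regulators, among them Ctcf and the cohesin genes, 18 were kept, with Rad21 not kept, and 0 were called in limma, with 1 at an unadjusted p under 0.05. The median was 0.04, against -0.01 over all genes, and by array it was -0.07, 0.12 and -0.28 on arrays 1, 2 and 3. Smchd1, a chromosomal protein that silences clustered protocadherins and the inactive X chromosome in mouse, was the single one under 0.05. Its ratios were 2.35, 1.27 and 1.97, with a mean of 1.86 ± 0.55, an adjusted p of 0.0533 in limma and no overlap between the groups. Next came Zfp143 (-0.36 ± 0.15), a factor found with CTCF at promoters, and Wapl (0.42 ± 0.46), which releases cohesin.

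Of 25 listed partners of protocadherins, namely the proteases that cut them and the kinases and actin regulators that bind them, 24 were kept and Adam10 was not. The median was 0.12, with 0 called in limma and 5 at an unadjusted p under 0.05, 3 higher and 2 lower. Psen2, a catalytic subunit of gamma-secretase, averaged 1.04 ± 0.34. Cttnbp2, a cortactin-binding protein, averaged 0.65 ± 0.19. Cyfip2, a subunit of the WAVE actin complex, averaged -0.72 ± 0.33. None of these 3 passed the threshold.

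Other members of the cadherin superfamily had a median of -0.08 over 30 kept genes of 43 on the array. By array their median was -0.35, 0.18 and -0.22 on arrays 1, 2 and 3. As with the clustered protocadherins, it was above 0 on array 2 only. In limma 0 were called and 12 were at an unadjusted p under 0.05, 7 higher and 5 lower. Cdh6, a classical cadherin of kidney and neural tissue, averaged 1.58 ± 0.50. The desmosomal cadherin genes Dsc2 and Dsg2 averaged 1.87 ± 0.82 and 1.02 ± 0.41. The 3 genes were higher on each array and had adjusted p of 0.0625, 0.0768 and 0.109 in limma.

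Genes in the wider region around the clusters on chromosome 18 showed no common shift. Their probes lie from mm9 chr18:36699368 (Slc4a9) to chr18:40417144 (Kctd16), and the clustered probes from chr18:37114742 to chr18:38001437. All 30 listed neighbours were kept, and their median was -0.06, or 0.13, -0.05 and -0.05 on arrays 1, 2 and 3, against -0.07, 0.45 and -0.65 for the clustered protocadherins. Among these neighbours 0 were called in limma, with 4 higher and 3 lower at an unadjusted p under 0.05. Dnd1, a germ cell RNA-binding protein, averaged -1.46 ± 0.44, Rell2 averaged -0.98 ± 0.25, and Nr3c1, the glucocorticoid receptor gene, averaged 0.94 ± 0.23. Visceral endoderm markers, the last list compared, had a median of 2.18 over 14 kept genes with 3 called, all higher (Ctsh 1.88 ± 0.18, Ttr 2.59 ± 0.69 and Apoa4 2.52 ± 0.75), and Alb was not kept. Their summed intensity was 583508 to 1125390 in the mutant and 156046 to 269260 in the wild type.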

How the data were processed

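Total RNA of day 10 embryoid bodies was amplified, labelled and hybridised to Agilent mouse 4x44K v2 arrays with 60-base probes, 3 arrays on 1 slide, per the labels' protocols. Brightness of each spot and its local background is deposited as an intensity per dye, per the file headers made with version 10.7.3.1 of Feature Extraction. The same deposited files give the software's own background-corrected, dye-normalised ratio as log10 of red over green. A deposited table of the authors gives log2 ratios made with limma, per the submitters' processing notes. Against the scanner ratios of 5793 bright probes its columns had slopes of 0.926, 0.956 and 1.00, which gives log2 of mutant over wild type, with column medians of -0.01, 0.02 and -0.01; how it was centred and background-corrected is unknown.

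In R 4.3.3 with limma 3.58.1, local background was limited to 100 units (25 spots of array 2 lay above), then corrected by normexp with offset 50 and normalised by loess within arrays, control spots having weight 0. Spots of a probe were averaged after control and outlier spots had been removed. The filter on dim probes left 25494 of 39429 probes, and the brightest kept probe stood for each of 19665 genes. Each gene's mean ratio was set against 0 in a two-sided limma test (lmFit, eBayes), adjusted by Benjamini-Hochberg at 0.05. Channel intensities are after loess and Aquantile scaling, and array number limits the precision. The share of spots well above background was 66.5%, 72.1% and 74.8% for the mutant and 73.6%, 64.8% and 76.0% for the wild type, and none was saturated. Symbols came through RefSeq accessions for 59 of the 64 member probes, coordinates of probes from the files (mm9) and promoters from RefSeq (GRCm38.p6).

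The members, the gene lists, the background limit and the named genes (every kept protocadherin gene, the 3 list members with the smallest p, and Dido1) were chosen with earlier results of these data known. The alternatives covered background, normalisation, filter, probe choice, a dye term, an intensity trend, the authors' values, the threshold and each replicate left out. With 3 arrays each holding both genotypes, pairing is part of every ratio.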

Additional observations from a re-analysis of the deposited data

How the results depend on the processing

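Leaving out replicate 2 or adding a dye term moved the calls most, and both leave the fit to estimate the spread from arrays 1 and 3, which share a dye orientation. The count of genes called, 325 in the reported fit, was 0 with no limit on the local background (3015 at an unadjusted p under 0.05 in limma), 0 with no filter (4785) and 0 with the authors' deposited log ratios (3838). It was 732 with a normexp offset of 16, 769 with the scanner log ratio, 2534 with the dye term, 605 with an intensity trend and 1352 at a threshold of 0.1, and from 0 to 5082 with a replicate left out: 0 without replicate 1 (1659 unadjusted) or replicate 3 (2370) and 5082 without replicate 2. The array 2 SD over genes was 0.80 with the limit and 0.49 without it. The count of protocadherin genes called, 0 in the reported fit, was 1, namely Pcdh17, with an offset of 16, the scanner log ratio, median centring, scaling between arrays, an intensity trend or probes tested singly, 2 at a threshold of 0.1, 5 with the dye term and 0 to 6 with a replicate left out. The non-clustered median was -0.0011 with no filter. Single genes changed sign 23 times. Pcdhac2 was -0.10 and Pcdhb16 -0.013 with no limit on the local background. Pcdhb17, close to 0 in the reported fit, was 0.022 with an offset of 16, 0.25 with the scanner log ratio, 0.010 with median centring, 0.0040 with scaling and 0.095 with the dye term. Pcdhb6 was 0.017 with the scanner log ratio, and the dye term gave 0.094 for Pcdh11x and 0.17 for Pcdhga9. With a replicate left out the range was -0.41 to 0.19 for Pcdh11x, -1.05 to 0.096 for Pcdh19, -0.31 to 0.59 for Pcdhac2, -0.14 to 0.30 for Pcdhb16, -0.28 to 0.43 for Pcdhb17, -0.63 to 0.22 for Pcdhb6, -0.94 to 0.0025 for Pcdhb20, -0.29 to 0.098 for Pcdhb22, -0.056 to 0.093 for Pcdhga5 and -0.49 to 0.27 for Pcdhga9; the cause was not tested. Among the other values of single genes, 281 kept their direction and side of the threshold and 16 gained a call. Each array pairs the mutant and wild type of a replicate, so the test of the ratios against 0 is the paired analysis, and no fit without the pairing was made.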
